A study of Mus musculus with 2 samples.

Results

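The dendritic cells in 2 single-cell RNA libraries of mouse intestinal tumours were chosen by measured marker counts, and they made up 96 of the 9254 cells that passed the cell filter, 58 in the cKO library and 38 in the WT library. The tumours came from mice given the carcinogen azoxymethane together with dextran sulfate sodium, an agent that injures the colon lining. cKO is the library of Mtch2fl/fl VilCre mice, in which Cre recombinase under the Villin promoter recombines floxed Mtch2 alleles in the intestinal epithelium. WT is the library of Mtch2fl/fl mice, which carry the floxed alleles without Cre. Both groups received the same treatment. Tumours of several mice were pooled for each genotype and dissociated in trypsin for 20 minutes, so there was 1 library a genotype, no replicate and no test, and the library and the genotype cannot be told apart. The age of the mice, their number in each pool and the time of tumour collection were not given in the sources used here.

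A cell passed the filter with at least 500 detected genes, at least 1000 unique molecular identifiers (UMIs, counts of captured RNA molecules) and at most 25% mitochondrial UMIs. Among those cells a dendritic cell had at least 3 UMIs, and at least 2 UMIs per 10000 UMIs of the cell (CP10k), summed over Flt3, Zbtb46, Xcr1, Clec9a, Cd209a and Ccr7. It also had at least 30 CP10k of the class II genes Cd74, H2-Aa and H2-Ab1, less than 15 CP10k of the complement genes C1qa, C1qb and C1qc, and fewer than 2 UMIs summed over the B cell genes Cd79a and Ms4a1, likewise over the T cell genes Cd3d, Cd3e and Cd3g. Levels of these 17 genes are therefore given as descriptions of the selection. The 6 markers summed to a median of 15 UMIs a cell in cKO and 17.5 in WT. The selected cells nearest to the limit, with 3 or 4 marker UMIs, were 10 in cKO and 5 in WT. Another 8 cKO and 7 WT cells met every other criterion and fell just short on the markers.

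Conventional dendritic cells take up antigen, cut it into peptides and show the peptides to T cells on class II and class I molecules. The cDC1 lineage, which depends on the transcription factors Irf8 and Batf3, takes up dead cells and presents their antigens to CD8 T cells, while the cDC2 lineage, which depends on Irf4 and Klf4, mainly instructs CD4 T cells. On activation, either lineage can switch on the chemokine receptor Ccr7 and the actin-bundling protein fascin (Fscn1) and travel through lymph vessels to the draining lymph node. In the gut, dendritic cells also make retinoic acid, which gives T cells their homing receptors for the intestine.

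The deposited matrices held 97364087 UMIs in 6723 cKO barcodes and 116066712 UMIs in 9445 WT barcodes. The dendritic cells were deeper than the average cell, with a median of 17382 UMIs (1752 to 49146) in cKO and 17672 UMIs (1398 to 69326) in WT, against 8621.5 and 8174.5 UMIs over all cells that passed. In total they held 1095857 UMIs in cKO and 802896 in WT, and levels are given as CPM, UMI counts scaled to a total of 1000000. Single cells weigh heavily at this size. The deepest one held 4.48% of the UMIs of the cKO dendritic cells and 8.63% of those in WT. Intervals are exact 95% intervals and cover counting error only. No dendritic-cell barcode occurred in both libraries.

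Some of the selected cells carried genes of other cell types. A list of 9 B cell genes reached at least 50 CP10k in 4 cKO cells and in no WT cell. A list of 10 epithelial genes reached at least 40 CP10k in 1 cKO and 3 WT cells, one of which was the deepest WT cell with 69326 UMIs. Siglech, a receptor of plasmacytoid dendritic cells, had 20 or more UMIs in 1 cKO and 3 WT cells. These 12 cells, 6 in each library, were kept, and results are repeated without them where that matters. Over all dendritic cells the epithelial list summed to 9.02 CP10k in cKO and 22.4 CP10k in WT, against 122 and 129 CP10k in epithelial cells gated on Epcam, Krt8 and Krt18. The T and NK cell list stood at 0.119 and 0.423 CP10k, with 6 of its 12 genes at 0 in both libraries, and the macrophage list at 3.34 and 2.15 CP10k, against 207 and 263 CP10k in C1q-high macrophages. The monocyte list stood at 24.4 CP10k in cKO and 17.1 CP10k in WT. The other 10 of the 14 lists of other cell types stood at no more than 4.61 CP10k in either library.

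Mtch2, the floxed gene, encodes an outer mitochondrial membrane protein (ENSMUSG00000027282, chromosome 2, 90847155 to 90866810, plus strand, GRCm38). Dendritic cells do not normally use the Villin promoter. In the dendritic cells Mtch2 stood at 39.2 CPM (28.4 to 52.9) in cKO and 73.5 CPM (55.9 to 94.8) in WT, from 43 UMIs in cKO and 59 UMIs in WT, a log2 ratio of cKO over WT, with 0.5 counts added, of -0.90 (-1.51 to -0.31). In gated epithelial cells it was at 23.3 CPM in cKO and 92.2 CPM in WT, in T cells at 38 and 59.6 CPM, and in macrophages at 56.5 and 53.3 CPM. Within cDC1-like cells Mtch2 stood at 40.1 CPM in cKO and 78.8 CPM in WT, and within Ccr7 cells at 44.2 CPM in cKO and 55.5 CPM in WT, where the log2 ratio was -0.33 (-1.28 to 0.64). It was detected in 28 of 58 cKO and 23 of 38 WT dendritic cells. The epithelial marker list moved with it, at 9.02 CP10k in cKO and 22.4 CP10k in WT dendritic cells, and its part in the difference was not tested. Without the 12 cells with other markers the log2 ratio of Mtch2 was -0.96.

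**Figure D1:**
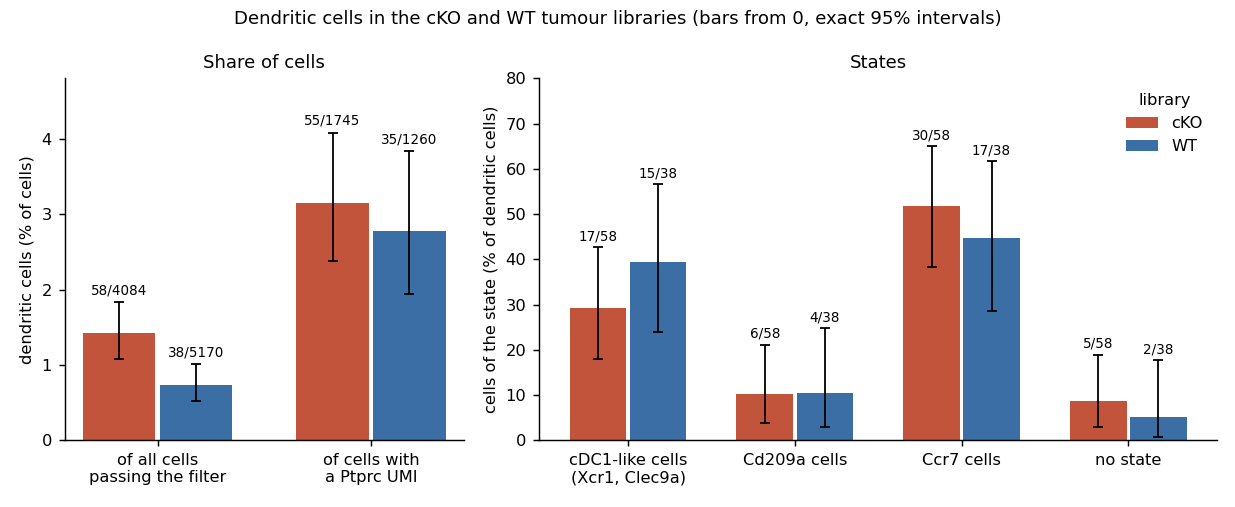
Dendritic cells as a percentage of cells (left) and their states as a percentage of dendritic cells (right) in the cKO (red) and WT (blue) libraries, with the cell counts above the bars and exact 95% binomial intervals as error bars. The share of all cells is 1.42% in cKO and 0.735% in WT, while the share of Ptprc cells and each state's share have overlapping intervals.

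Dendritic cells were a larger share of all cells in cKO, and about as large a share of leukocytes in both libraries. They made up 58 of 4084 cells in cKO, 1.42% (1.08 to 1.83, exact Clopper-Pearson interval), and 38 of 5170 cells in WT, 0.735% (0.521 to 1.01). Among cells with at least 1 UMI of Ptprc, the gene of the leukocyte antigen CD45, they were 55 of 1745 in cKO, 3.15% (2.38 to 4.08), and 35 of 1260 in WT, 2.78% (1.94 to 3.84). The denominators differed, since gated epithelial cells numbered 2017 in cKO and 3739 in WT. The difference in leukocyte share was 0.37 percentage points, and -0.04 points once every cell was thinned to 2000 UMIs. Cells assigned to male mice by sex-linked genes were 67.2% of the dendritic cells in cKO and 50% in WT, so both pools held both sexes, in different proportions.

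Each dendritic cell was given a state from the genes of the rule. Of Xcr1 with Clec9a, of Cd209a and of Ccr7, the one with the most UMIs in the cell named it, if it had at least 2 UMIs. The cells led by Xcr1 and Clec9a, a chemokine receptor and a receptor for dead cells, are called cDC1-like because 16 of 17 in cKO and 13 of 15 in WT also scored highest for a list of cDC1 genes outside the rule. They were 29.3% (18.1 to 42.7) of the dendritic cells in cKO and 39.5% (24.0 to 56.6) in WT. Cells led by Cd209a, a C-type lectin of cDC2, were few, 6 of 58 in cKO (10.3%, 3.89 to 21.2) and 4 of 38 in WT (10.5%, 2.94 to 24.8). Cells led by Ccr7 were the most numerous, 30 of 58 in cKO (51.7%, 38.2 to 65.0) and 17 of 38 in WT (44.7%, 28.6 to 61.7). The remaining 5 cKO and 2 WT cells had no state.

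The lineage genes named here differed by less than 2-fold between the cDC1-like cells of the 2 libraries. For Irf8, lower in cKO, the interval of the ratio given below excluded equal levels. The levels include the Siglech-high cells of this state, 1 in cKO and 2 in WT. Xcr1 stood at 200.5 CPM in cKO and 259.9 CPM in WT and Clec9a at 323 CPM in cKO and 403 CPM in WT, as the rule required. Outside the rule, Irf8 stood at 823 CPM in cKO and 1054 CPM in WT, and Batf3, its partner in cDC1 development, at 131 CPM in cKO and 111 CPM in WT. Wdfy4, needed for presenting antigen of dead cells on class I, stood at 944 CPM in cKO and 1002 CPM in WT. The adhesion molecule Cadm1 stood at 479 CPM in cKO and 639.5 CPM in WT, and Itgae, the CD103 integrin chain that binds epithelial E-cadherin, at 596 CPM in cKO and 549 CPM in WT. Tlr3, the sensor of double-stranded RNA, was low, at 77.5 CPM in cKO and 67.2 CPM in WT. Of 12 measured cDC1 genes outside the rule, 7 stood at least 2-fold over the highest other state in both libraries, where 1.99% of all 3972 measured genes did.

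The 12 genes with the largest excess of cDC1-like cells over the other states, both libraries taken into account, were Xcr1, Clec9a, Cyp26b1, Siglech, Naaa, Med12l, Ctla4, Cadm1, Ppt1, Timd4, Asb2 and Lrrk2. Xcr1 and Clec9a are there by selection. Cyp26b1, an enzyme that breaks down retinoic acid, stood at 149.7 CPM in cKO and 189.8 CPM in WT, and at 0 to 2.01 CPM in the other states. Naaa, a lysosomal amidase, stood at 615 CPM in cKO and 669 CPM in WT, and Ppt1, a lysosomal thioesterase, at 561 CPM in cKO and 558 CPM in WT. Ctla4, the inhibitory receptor best known from T cells, stood at 214 CPM in cKO and 201 CPM in WT, with UMIs in 11 of 17 and 12 of 15 cells. Lrrk2, a kinase of the endolysosomal system, stood at 901 CPM in cKO and 496 CPM in WT. Timd4, a receptor for phosphatidylserine on dead cells, came from 5 cells in each library, and Siglech was carried almost wholly by the Siglech-high cells, with 93.9% of its cKO counts in a single cell.

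**Figure D2:**
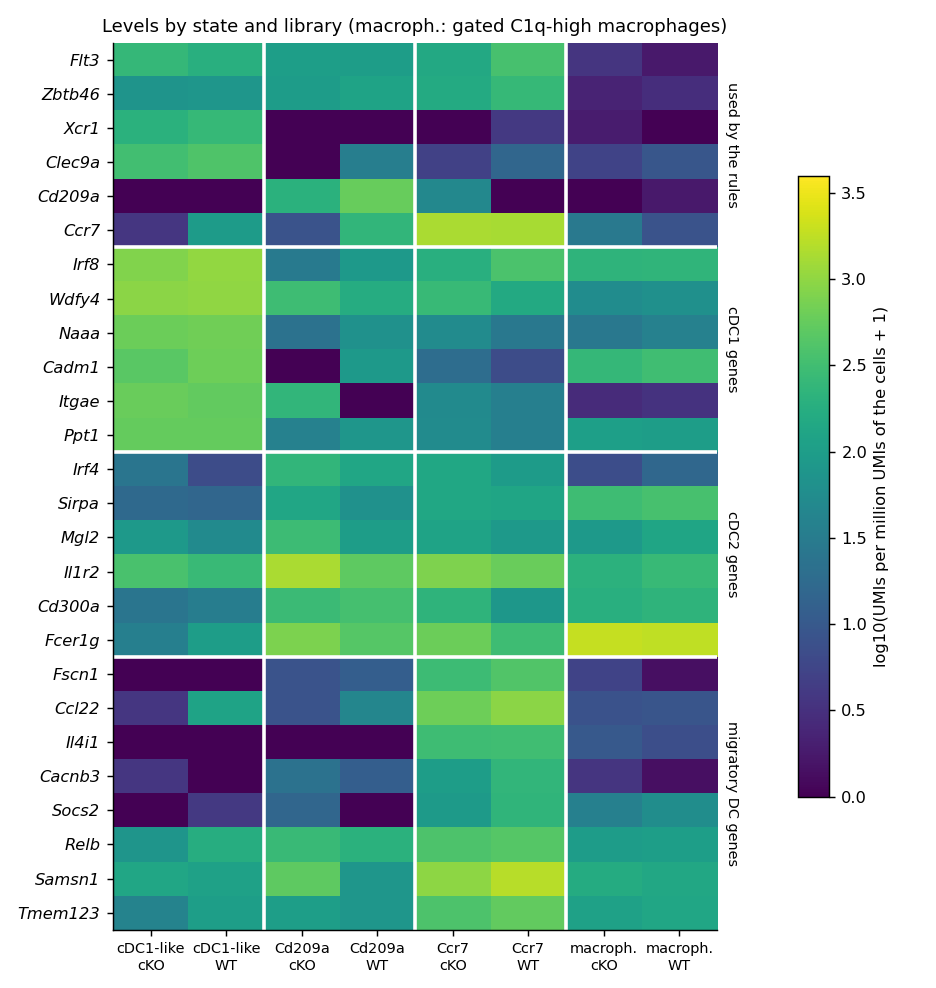
Level of 26 genes (rows) in the cDC1-like, Cd209a and Ccr7 dendritic cells and in gated C1q-high macrophages of the cKO and WT libraries (columns), as log10 of CPM plus 1 in colour. The 6 genes on top were used to choose the cells, the others were not. The cDC1 genes are brightest in both cDC1-like columns, Il4i1 and Fscn1 in both Ccr7 columns.

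The Cd209a cells shared the cDC2 list but were too few to describe without single cells deciding it. By the list of cDC2 genes outside the rule, 6 of 6 in cKO and 3 of 4 in WT scored highest for cDC2. Cd209a itself stood at 198 CPM in cKO and 585 CPM in WT. Irf4 stood at 235 CPM in cKO and 133 CPM in WT, the macrophage galactose lectin Mgl2 at 293 CPM in cKO and 99.4 CPM in WT, the interleukin 1 decoy receptor Il1r2 at 1393 CPM in cKO and 508 CPM in WT and the inhibitory receptor Cd300a at 286 CPM in cKO and 342 CPM in WT. Only 2 of 13 measured cDC2 genes exceeded the highest other state by 2-fold in both libraries, against 1.59% of all measured genes. The genes with the largest excess were Pawr, Rbms3, Spock2, Timp3, Zbtb7c, Mcc, Tspan5, Nav2, Etl4, Hes1 and Ptprk, besides Cd209a, and all 11 had at least 88.9% of their counts in a single cell in each library. Those cells, one in cKO with 42426 UMIs and one in WT with 52715 UMIs, are among the 12 with markers of other cell types, and gated epithelial cells had these genes at 113 to 574 CPM in cKO and 121 to 629 CPM in WT.

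Several migratory genes were highest in the Ccr7 cells, though not all of these cells scored highest for them. By the lists outside the rule, 12 of 30 in cKO and 10 of 17 in WT scored highest for migratory genes, and 16 in cKO and 7 in WT for cDC2 genes. Ccr7 stood at 1399 CPM in cKO and 1346 CPM in WT. Fscn1 stood at 289 CPM in cKO and 420.4 CPM in WT, and in cDC1-like cells it was at 0 in both libraries. Ccl22 stood at 636 CPM in cKO and 934 CPM in WT, and Ccl17 at 409.6 CPM in cKO and 388 CPM in WT. Both encode ligands of Ccr4, a chemokine receptor of T cells. Il4i1, an amino acid oxidase, stood at 299 CPM in cKO and 315 CPM in WT and was at 0 in the other 2 states of both libraries. The NF-kB subunit Relb stood at 394 CPM in cKO and 444 CPM in WT, and the signalling adaptor Samsn1 at 974 CPM in cKO and 1655 CPM in WT. Of 25 measured migratory genes outside the rule, 13 stood at least 2-fold over the highest other state in both libraries, where 2.62% of all measured genes did.

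By rank, the 12 genes with the largest excess in Ccr7 cells were Cxcl3, Il4i1, Fabp5, Fscn1, Inhba, Tnfrsf9, Ccl22, Nostrin, Ccl5, Ccr7, Anxa3 and Fam49a. Fabp5, a fatty acid carrier, stood at 1771 CPM in cKO and 1842 CPM in WT, against 2.67 to 58.7 CPM in the other states. Tnfrsf9, the co-stimulatory receptor 4-1BB, stood at 175 CPM in cKO and 149 CPM in WT. The neutrophil-attracting chemokine Cxcl3 stood at 369 CPM in cKO and 587 CPM in WT from 5 of 30 and 4 of 17 cells, and Inhba, a subunit of activin A, at 576 CPM in cKO and 485 CPM in WT from 5 and 4 cells. Ccl5 stood at 976 CPM in cKO and 729.9 CPM in WT, with 58.0% and 54.8% of its counts in a single cell.

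These lists did not fall in the same cells. Fscn1 had at least 2 UMIs in 4 of the 30 Ccr7 cells in cKO (13.3%, 3.76 to 30.7) and in 8 of 17 in WT (47.1%, 23 to 72.2). This split, and the genes named for it, were chosen after the values were seen, and they carry no test. In the Fscn1-high cells, against the other Ccr7 cells, Ccr7 itself stood at 3023 against 1061 CPM in cKO and at 2283 against 606 CPM in WT. Ccl22 stood at 3093 against 124 CPM in cKO and at 1403 against 564 CPM in WT, and Il4i1 at 1151 against 121 CPM in cKO and at 609 against 83.6 CPM in WT. Cacnb3, a calcium channel subunit of mature dendritic cells, stood at 558 against 4.85 CPM in cKO and at 489.7 against 26.1 CPM in WT. The cytokine receptor Flt3, which keeps dendritic cells alive, stood at 569.7 against 58.2 CPM in cKO and at 622 against 136 CPM in WT, and all Fscn1-high cells had Flt3 or Zbtb46.

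The other Ccr7 cells, 26 in cKO and 9 in WT, had inflammatory and monocyte genes at higher levels than the Fscn1-high cells. Fcer1g, the common Fc receptor chain, stood at 11.6 against 743 CPM in cKO and at 52.9 against 507 CPM in WT, in Fscn1-high cells against the rest. The cytokine gene Il1b stood at 221 against 4075 CPM in cKO and at 1357 against 3751 CPM in WT. The chemokine gene Cxcl2 stood at 256 against 2325 CPM in cKO and at 59.6 against 5073 CPM in WT. Cxcl3, Inhba, Il1a and Csf1r, the receptor for macrophage colony-stimulating factor, were at 0 in the Fscn1-high cells of both libraries. Csf1r stood in the rest at 129 CPM in cKO and 141 CPM in WT, and Il1a at 471 CPM in cKO and 449 CPM in WT. Cd14, a co-receptor for bacterial lipopolysaccharide, stood at 11.6 against 541 CPM in cKO and at 13.2 against 251 CPM in WT, and the lysozyme gene Lyz2 at 11.6 against 514 CPM in cKO and at 6.62 against 392 CPM in WT. Neither Flt3 nor Zbtb46 was detected in 9 of these 26 cells in cKO and 4 of 9 in WT. The monocyte list stood at 41.9 CP10k in these cells in cKO and 31.8 CP10k in WT, against 5.93 and 9.13 CP10k in the Fscn1-high cells and 137 and 115 CP10k in class II cells with little C1q and few dendritic markers. Of these 35 cells 8 of 26 in cKO and 2 of 9 in WT scored highest for the migratory list and 16 and 7 for the cDC2 list, so they are called Ccr7 cells here and given no type. All 4 cKO cells with B cell markers are among the 26, and gated B cells had Ccr7 at 549 CPM in cKO and 478 CPM in WT. Without those 4 cells, neither Flt3 nor Zbtb46 was detected in 6 of 22 cKO cells, and the monocyte list stood at 43.3 CP10k. The deepest WT cell is one of the 9, and the epithelial list stood in them at 52.8 CP10k with it and 9.91 CP10k without it. Without that cell the 8 other WT cells had Cxcl2 at 7904 CPM, Ccr7 at 926 CPM, Ccl22 at 876 CPM, Il4i1 at 131 CPM, Il1a at 704 CPM, Fcer1g at 786 CPM, Cd14 at 377 CPM and Csf1r at 213 CPM, each over 1.5 times the value with it.

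**Figure D3:**
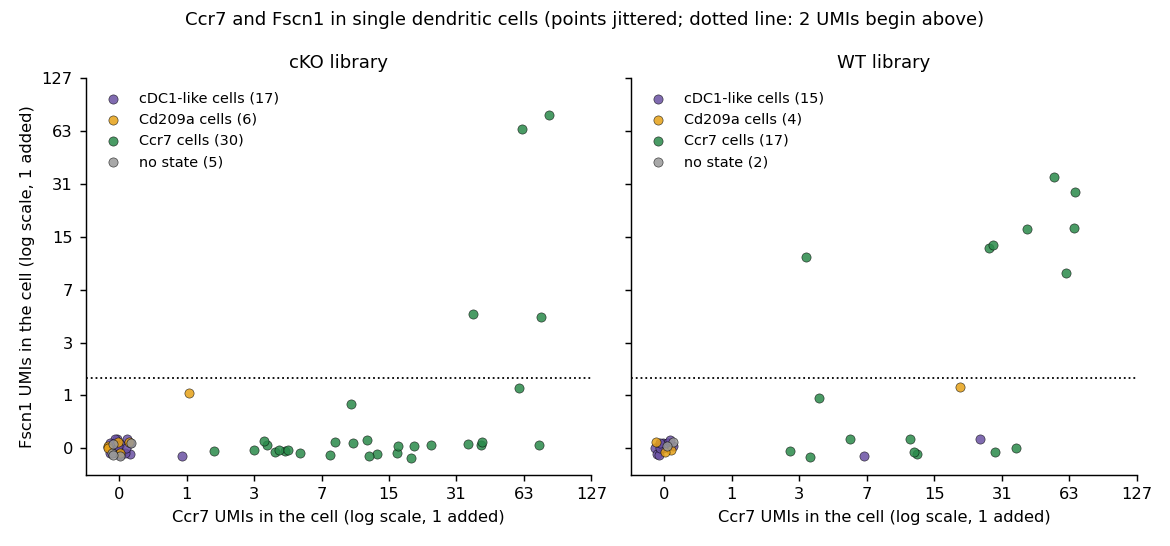
UMIs of Ccr7 (x axis) and Fscn1 (y axis) in each dendritic cell of the cKO (left) and WT (right) libraries, on log scales with 1 added and with jitter, coloured by state. Ccr7 cells lie both at the bottom and above the dotted line, where 2 or more Fscn1 UMIs begin, with 4 of 30 above it in cKO and 8 of 17 in WT.

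Several genes were alike in both kinds of Ccr7 cell. The co-stimulatory ligand Cd86 stood at 1069.6 against 1201 CPM in cKO and at 1013 against 705 CPM in WT, in Fscn1-high cells against the rest. The inhibitory ligand Cd274, which is PD-L1, stood at 558 against 735 CPM in cKO and at 1046 against 627 CPM in WT, and the interleukin 7 receptor Il7r at 546 against 473 CPM in cKO and at 509.6 against 360.5 CPM in WT. The class II gene H2-Aa, which the rule used, was lower in the Fscn1-high cells of both libraries, at 1616 against 3805 CPM in cKO and at 2548 against 2748 CPM in WT.

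The promoters of 4 state genes are shown. Clec9a and Cd209a were used by the rule that named the cDC1-like and Cd209a cells, so their high levels there were fixed by it. Fscn1 and Cxcl3 were highest in the Ccr7 cells of both libraries. Fscn1 is shown for the Fscn1-high cells, which it defines, and Cxcl3 for the other Ccr7 cells. Cxcl3 had UMIs in only a minority of those other Ccr7 cells, and the split was chosen after the values were seen. The windows are RefSeq's, 250 bases before to 50 after the annotated start in GRCm38.p6, printed along the gene's strand. Capitals mark matches, on either strand, to the interferon-type motif GAAANNGAA, to GGAANNGAAA and to the NF-kB consensus. GGAANNGAAA joins an ETS factor core, GGAA, to an interferon regulatory factor core, GAAA, and can overlap the first motif. Clec9a (ENSMUSG00000046080, chromosome 6, 129408862 to 129424763, plus strand) has the window chr6:129408612-129408911, Cd209a (ENSMUSG00000031494, chromosome 8, 3743397 to 3748984, minus strand) the window chr8:3748935-3749234, Fscn1 (ENSMUSG00000029581, chromosome 5, 142960343 to 142973185, plus strand) the window chr5:142960105-142960404, and Cxcl3 (ENSMUSG00000029379, chromosome 5, 90786103 to 90789600, plus strand) the window chr5:90785851-90786150.
Clec9a: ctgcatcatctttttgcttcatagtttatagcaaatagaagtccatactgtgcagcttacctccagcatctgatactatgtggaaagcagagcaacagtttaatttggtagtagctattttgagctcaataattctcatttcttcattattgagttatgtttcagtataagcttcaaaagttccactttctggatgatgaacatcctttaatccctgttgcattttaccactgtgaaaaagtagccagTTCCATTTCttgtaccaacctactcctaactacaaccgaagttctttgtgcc
Cd209a: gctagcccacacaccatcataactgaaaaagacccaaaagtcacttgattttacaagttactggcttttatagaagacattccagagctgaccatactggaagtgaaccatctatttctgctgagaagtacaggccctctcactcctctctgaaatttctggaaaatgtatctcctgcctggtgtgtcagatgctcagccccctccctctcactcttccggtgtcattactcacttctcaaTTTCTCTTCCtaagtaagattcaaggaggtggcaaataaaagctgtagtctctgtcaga
Fscn1: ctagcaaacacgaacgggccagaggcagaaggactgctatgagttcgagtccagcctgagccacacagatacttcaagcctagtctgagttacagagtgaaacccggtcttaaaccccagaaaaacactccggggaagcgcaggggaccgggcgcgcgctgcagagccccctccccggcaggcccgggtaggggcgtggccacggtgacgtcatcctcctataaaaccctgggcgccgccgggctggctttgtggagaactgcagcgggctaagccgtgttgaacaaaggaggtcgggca
Cxcl3: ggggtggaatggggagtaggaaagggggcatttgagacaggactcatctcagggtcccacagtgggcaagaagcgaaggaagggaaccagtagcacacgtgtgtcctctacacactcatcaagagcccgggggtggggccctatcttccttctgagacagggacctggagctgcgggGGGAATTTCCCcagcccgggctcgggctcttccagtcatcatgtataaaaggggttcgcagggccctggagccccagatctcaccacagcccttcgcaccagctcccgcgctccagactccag

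Clec9a holds GAAANNGAA read on the opposite strand, beginning at base -2 from the start, Cd209a holds GGAANNGAAA on the opposite strand at base -9, and Cxcl3 holds overlapping NF-kB matches on both strands from base -73. Fscn1 holds none of the 3. Of all 32851 windows in the table, 8.56% hold GAAANNGAA, 2.72% GGAANNGAAA and 8.46% the NF-kB consensus. Among the genes named for the states that had a window, GAAANNGAA was found in 5 of 11 for cDC1-like cells, 1 of 9 for Cd209a cells and 0 of 7 for Ccr7 cells. Clec9a, which the rule used, is among the 5. In the same order the NF-kB consensus was found in 1, 2 and 2 genes and GGAANNGAAA in 1, 1 and 0. The 1 GGAANNGAAA gene of the Cd209a cells is Cd209a, which the rule used. These counts take a gene with a match in any of its windows, whereas the percentages count windows, so the 2 are not alike. A match is a description of the letters and no evidence of binding.

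Set against 6 gated cell classes of the same libraries, the dendritic cells stood out in single chemokines and in some lineage genes. Only 2 of 13 measured chemokine ligands, Ccl22 and Ccl17, stood at least 2-fold over every class in both libraries, and the summed chemokine list was lower in dendritic cells, at 4192 CPM in cKO and 4033 CPM in WT, than in macrophages, at 8437 CPM in cKO and 6442 CPM in WT. Ccl22 was at 292 CPM in cKO and 456 CPM in WT, and no gated class passed 7.78 CPM. Klri1, a killer lectin-like receptor, was at 182 CPM in cKO and 108 CPM in WT, and Zfp366, a zinc finger protein also called DC-SCRIPT, at 329 CPM in cKO and 203 CPM in WT. Cst3, the protease inhibitor cystatin C, was the most abundant of the 15 named genes, at 8327 CPM in cKO and 8492 CPM in WT in dendritic cells and 1172 CPM in cKO and 1251 CPM in WT in macrophages, the next class. Htr7, a serotonin receptor, was at 760.1 CPM in cKO and 597 CPM in WT, and Tbc1d8 at 548 CPM in cKO and 762 CPM in WT. The other named genes were Ccl17, Timd4, Fscn1, Il4i1, Naaa, Adgrg6 and Scin, with Clec9a and Flt3, which the rule used. Of all measured genes, 2.44% stood at least 2-fold over every class in both libraries. Among them were 8 of 25 migratory genes, 5 of 21 core conventional dendritic cell genes and 4 of 12 cDC1 genes, but 0 of 13 cDC2 genes.

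Between the genotypes most genes of the dendritic cells differed little. Of 3972 measured genes, having at least 50 CPM in either library and at least 20 UMIs in all, 105 (2.64%) were at least 2-fold higher in cKO and 199 (5.01%) at least 2-fold lower. Without the 12 cells with markers of other types, 115 were at least 2-fold lower. Over all measured genes the median log2 ratio was -0.06, with 1736 genes higher in cKO and 2236 lower. These values are the background for the list counts below. The 2 pools of dendritic cells also differed in makeup, with more Fscn1-low Ccr7 cells in cKO (26 of 58) than in WT (9 of 38) in the deposited counts. Of these, 22 in cKO and 8 in WT had no markers of other types, and 4 in cKO had B cell markers. The share of cDC1-like cells differed by -10.2 percentage points, cKO minus WT, and by 6.86 points once every cell was thinned to 2000 UMIs. The part of this makeup in each difference was not tested, and values within states are given where the counts allow.

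**Figure D4:**
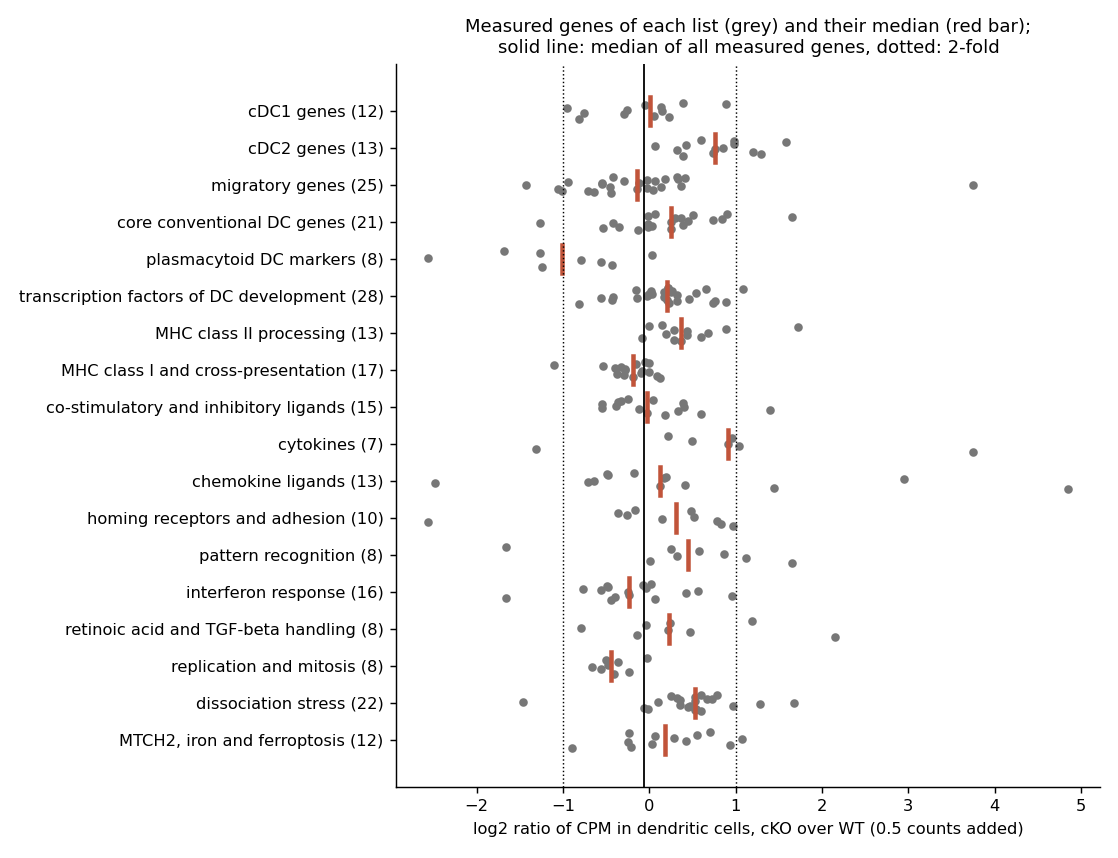
Log2 ratio of CPM in dendritic cells, cKO over WT, of each measured gene (grey points) in 18 gene lists (rows, number of measured genes in brackets) and the list medians (red bars). The solid line is the median of all measured genes, -0.06, and dotted lines mark 2-fold. The cDC2, cytokine and dissociation stress lists lie mostly right of the line, the plasmacytoid list left of it.

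All 13 measured cDC2 genes had higher levels in cKO. Their median log2 ratio was 0.76, and 3 were past 2-fold. Fcgr2b, the inhibitory receptor for antibody complexes, stood at 120.5 CPM in cKO and 39.9 CPM in WT, a log2 ratio of 1.58 (1.03 to 2.20). Mgl2 stood at 172 CPM in cKO and 69.7 CPM in WT, a log2 ratio of 1.29 (0.86 to 1.76). Itgam, the CD11b integrin chain, stood at 66.6 CPM in cKO and 28.6 CPM in WT, a log2 ratio of 1.20 (0.52 to 1.96). Fcer1g at 464 and 234 CPM and Il1r2 at 788 and 465 CPM, cKO before WT, were short of 2-fold. The monocyte list was also higher, at 24.4 CP10k in cKO and 17.1 CP10k in WT, and its part in these values was not tested. Fcgr2b, Mgl2 and Itgam were the 3 genes past 2-fold. None of these 3 genes is particular to dendritic cells. Fcgr2b was detected in 68.0% of macrophages in cKO and 71.8% in WT, against 32.8% and 23.7% of dendritic cells. Itgam was detected in 60.1% and 63.0% of macrophages, against 41.4% and 18.4% of dendritic cells, cKO before WT. Mgl2 was detected in 36.6% and 44.2% of macrophages, against 29.3% and 28.9% of dendritic cells. Cd209a, which the rule used and the list leaves out, was lower in cKO, at 46.5 CPM in cKO and 66.0 CPM in WT. Within Ccr7 cells, 4 of 14 measured cDC2 genes were at least 2-fold higher in cKO and 0 lower, where 6.44% of all genes measured there were higher and 10.1% lower. Within cDC1-like cells 1 of 6 was higher and 2 lower, where 7.46% of all genes were higher and 7.46% lower.

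The cDC1 list did not differ as a group. Of 12 measured genes 6 were higher in cKO and 6 lower. Their median was 0.00, and 0 were past 2-fold in either direction. Irf8 stood at 374 CPM in cKO and 660.1 CPM in WT over all dendritic cells, a log2 ratio of -0.82 (-1.01 to -0.63), and in cDC1-like cells at 823 CPM in cKO and 1054 CPM in WT, a log2 ratio of -0.36 (-0.58 to -0.13). Id2, a repressor needed for conventional dendritic cells, stood at 536 CPM in cKO and 290.2 CPM in WT, a log2 ratio of 0.88 (0.66 to 1.11).

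Of 28 measured transcription factors of dendritic cell development 20 were higher in cKO, with a median of 0.21, and 1 was past 2-fold. That was Cebpb, a factor of inflammatory myeloid cells, at 286 CPM in cKO and 135 CPM in WT, a log2 ratio of 1.08 (0.77 to 1.42). In Ccr7 cells it was held by the Fscn1-low cells, at 541 CPM in cKO and 444 CPM in WT, against 23.3 and 13.2 CPM in Fscn1-high cells, and without the deepest WT cell the Fscn1-low cells in WT had 679.8 CPM. Irf4 stood at 115 CPM in cKO and 68.5 CPM in WT, Batf3 at 101 CPM in cKO and 85.9 CPM in WT, and Zeb2, a repressor active in cDC2 and monocyte development, at 756 CPM in cKO and 445 CPM in WT. Among 21 measured core genes of conventional dendritic cells outside the rule 13 were higher in cKO and 8 lower. Their median was 0.25, and 1 was past 2-fold each way. Rab30, a small GTPase of the Golgi, stood at 75.7 CPM in cKO and 23.7 CPM in WT, with 59.0% of the cKO counts in a single cell. Hmgn3, a nucleosome-binding protein, stood at 35.6 CPM in cKO and 85.9 CPM in WT, and within Ccr7 cells it was at 267 CPM in cKO and 298 CPM in WT in the Fscn1-high cells, against 14.6 and 5.22 CPM in the others, where it was at 0 in WT without the deepest cell.

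Of 25 measured migratory genes 16 were lower in cKO, 3 of them past 2-fold, against 2236 of all 3972 measured genes lower, and the list's median was -0.15. Anxa3, a phospholipid-binding annexin, stood at 54.8 CPM in cKO and 148 CPM in WT, a log2 ratio of -1.43 (-1.91 to -0.98). Socs2, a brake on cytokine signalling, stood at 46.5 CPM in cKO and 97.1 CPM in WT, a log2 ratio of -1.06 (-1.60 to -0.53), and Cacnb3 at 49.3 CPM in cKO and 99.6 CPM in WT, a log2 ratio of -1.01 (-1.54 to -0.50). Ccl22 and Ccl17 were short of 2-fold, with log2 ratios of -0.64 and -0.71. Fscn1-high cells were 4 of 58 dendritic cells in cKO and 8 of 38 in WT, and the part of this share in these values was not tested. The 1 gene past 2-fold upward was Il12b, a subunit of interleukin 12 that drives T helper 1 responses, at 159 CPM in cKO and 11.2 CPM in WT. Its cKO counts came from 3 cells, of which 1 cDC1-like cell had 105 UMIs and 1 Ccr7 cell 65.

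In RNA levels, the listed genes of class II presentation leaned higher in cKO and those of class I slightly lower, and presentation itself was not measured. Of 13 measured class II genes outside the rule 11 were higher in cKO, with a median of 0.36, and 1 was past 2-fold. That gene was March1, a ubiquitin ligase that removes class II and Cd86 from the surface, at 219.9 CPM in cKO and 66.0 CPM in WT, a log2 ratio of 1.73 (1.30 to 2.19). In cDC1-like cells March1 stood at 446 CPM in cKO and 90.5 CPM in WT, and in Ccr7 cells at 84.3 CPM in cKO and 38 CPM in WT. Ciita, the class II transactivator, stood at 159.7 CPM in cKO and 99.6 CPM in WT, and the class II chain H2-Eb1 at 4461 CPM in cKO and 3472 CPM in WT. Of 17 measured class I genes 14 were lower in cKO, with a median of -0.19, against 2236 of all 3972 measured genes and a median of -0.06. Past 2-fold was 1 gene, where 5.01% of all measured genes were. That was Nlrc5, the class I transactivator, at 56.6 CPM in cKO and 122 CPM in WT, a log2 ratio of -1.11 (-1.59 to -0.64). The class I light chain B2m did not follow it, at 1361 CPM in cKO and 1245 CPM in WT.

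Co-stimulatory and inhibitory ligands were balanced, with 7 of 15 measured genes higher and 8 lower in cKO. Cd86 stood at 1109.6 CPM in cKO and 731 CPM in WT, a log2 ratio of 0.60 (0.46 to 0.75), Cd80 at 496 CPM in cKO and 438 CPM in WT and Cd40 at 86.7 CPM in cKO and 88.4 CPM in WT. Cd274 stood at 642 CPM in cKO and 697 CPM in WT. The 1 gene past 2-fold was Tnfsf9, the ligand of 4-1BB, at 119.5 CPM in cKO and 44.8 CPM in WT, a log2 ratio of 1.40 (0.87 to 1.99).

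Of 7 measured cytokine genes 6 were higher in cKO, with a median of 0.91, and 2 were past 2-fold, Il12b and Tnf. Without the 12 cells with other markers the list median was 0.66. Within cDC1-like cells it was -0.12 over 4 measured genes, and within Ccr7 cells 0.48 over 10. The cKO counts of Il12b came from 3 cells. Tnf stood at 164 CPM in cKO and 79.7 CPM in WT, a log2 ratio of 1.04 (0.62 to 1.48). Il1b stood at 2525 CPM in cKO and 1786 CPM in WT, Il1a at 206 CPM in cKO and 109.6 CPM in WT and Il1rn, which blocks the interleukin 1 receptor, at 327 CPM in cKO and 168 CPM in WT. Among Ccr7 cells, Il1b and Il1a were higher in the Fscn1-low cells of both libraries, and the part of those cells here was not tested. Il23a, a subunit of interleukin 23, was the gene lower in cKO, at 27.4 CPM in cKO and 68.5 CPM in WT, with 63.6% of its WT counts in a single cell. Il10, which damps inflammation, had 18 UMIs in 6 cKO cells and 0 UMIs in WT, where a count of 0 allows up to 3 counts, or 3.74 CPM.

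Chemokine ligands went both ways, 7 higher and 6 lower in cKO of 13 measured, with 3 and 1 past 2-fold. Ccl3, which attracts monocytes and T cells, stood at 154 CPM in cKO and 56.0 CPM in WT, a log2 ratio of 1.45 (0.98 to 1.97). Ccl2 at 89.4 CPM in cKO and 2.49 CPM in WT and Ccl24 at 177 CPM in cKO and 22.4 CPM in WT each had most of their cKO counts in a single cell, 77.6% and 93.8%. Ccl6 was lower, at 21.9 CPM in cKO and 125 CPM in WT, with 75.0% of its WT counts in a single cell, and its log2 ratio was -2.49 in all cells and -0.81 without the 12 cells with other markers.

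Among homing and sensing genes, single members stood apart. Of 10 measured homing genes 6 were higher in cKO and 4 lower, the median was 0.31, and 1 was past 2-fold downward. The gut homing receptor Ccr9, that gene, stood at 50.2 CPM in cKO and 298 CPM in WT, a log2 ratio of -2.56 (-3.02 to -2.14), and it is also a gene of plasmacytoid dendritic cells. In cDC1-like cells Ccr9 stood at 115 CPM in cKO and 403 CPM in WT. Of the Siglech-high cells 1 in cKO and 2 in WT are cDC1-like, and without the 12 cells with other markers Ccr9 stood in cDC1-like cells at 50.5 CPM in cKO and 143 CPM in WT, and its log2 ratio over all dendritic cells was -1.27. Of 8 measured pattern recognition genes 7 were higher in cKO and 2 past 2-fold, Cd14 at 253 CPM in cKO and 79.7 CPM in WT and the fungal and mycobacterial receptor Clec4e at 161 CPM in cKO and 73.5 CPM in WT. The scavenger receptor Cd36 was lower, at 45.6 CPM in cKO and 144 CPM in WT, a log2 ratio of -1.65 (-2.17 to -1.17). Of 8 measured genes of retinoic acid and TGF-beta handling 5 were higher, 2 past 2-fold, with a median of 0.23. Aldh1a2, the enzyme that makes retinoic acid, stood at 73.9 CPM in cKO and 16.2 CPM in WT, a log2 ratio of 2.15 (1.34 to 3.16), with 56.8% of its cKO counts in a single cell, and the secreted matrix protein Tgfbi at 183 CPM in cKO and 79.7 CPM in WT.

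Of 16 measured interferon response genes 11 were lower in cKO, with a median of -0.24, against 2236 of all 3972 measured genes and a median of -0.06. The 1 gene past 2-fold, where 5.01% of all measured genes were, was the interferon regulatory factor Irf7, at 23.7 CPM in cKO and 76.0 CPM in WT. Of its WT counts 60.7% came from a single cell, and without the 12 cells with other markers the list median was 0.18. Plasmacytoid markers were lower too, 7 of 8 measured, 4 past 2-fold, with a median of -1.01. Siglech itself stood at 44.7 CPM in cKO and 106 CPM in WT, from 2 cKO and 3 WT cells, so this list follows a handful of cells.

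All 8 measured replication and mitosis genes were lower in cKO, none past 2-fold, with a median of -0.44, against 2236 of all 3972 measured genes lower. Within cDC1-like cells the list median was -0.58 over 12 measured genes, and within Ccr7 cells 0.01 over 8. The proliferation marker Mki67 stood at 109.5 CPM in cKO and 146 CPM in WT, and the topoisomerase Top2a at 121 CPM in cKO and 143 CPM in WT. A single cell held 39.2% of the Mki67 counts in cKO and 29.1% in WT.

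Genes of dissociation stress leaned higher in cKO, 19 of 22 measured, 2 past 2-fold and 1 lower past 2-fold, with a median of 0.53. The heat shock genes Hspa1a and Hspa1b stood at 884 CPM in cKO and 364 CPM in WT, and at 537 CPM in cKO and 168 CPM in WT, and the gene past 2-fold downward was the small heat shock protein Hspb1, at 36.5 CPM in cKO and 101 CPM in WT. Within cDC1-like cells 11 of 22 were at least 2-fold higher in cKO and 0 lower, where 7.46% of all genes measured there were higher and 7.46% lower. Among the 11 was Fos, an immediate early transcription factor, at 2069 CPM in cKO and 783 CPM in WT. Within Ccr7 cells 3 were higher and 4 lower, where 6.44% of all genes measured there were higher and 10.1% lower. Fos stood in Ccr7 cells at 235 CPM in cKO and 523 CPM in WT. The deepest WT cell, a Ccr7 cell with epithelial markers, held 49.7% of those WT Fos counts, and without the deepest cell of each library the median of the list in Ccr7 cells was 0.40, against 0.09 with them.

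Of the list of Mtch2, iron and ferroptosis genes 12 were measured, 8 higher in cKO and 4 lower, and the median was 0.18. The 1 gene past 2-fold was Slc7a11, the cystine importer, at 546 CPM in cKO and 259 CPM in WT, a log2 ratio of 1.07 (0.84 to 1.31). The iron storage chain Fth1 stood at 9693 CPM in cKO and 5088 CPM in WT, a log2 ratio of 0.93 (0.88 to 0.98). Fth1 stood in Ccr7 cells at 13868 CPM in cKO and 6908 CPM in WT, and in cDC1-like cells at 2794 CPM in cKO and 2955 CPM in WT. The Ccr7 cells differ in makeup, with 26 of 30 Fscn1-low in cKO and 9 of 17 in WT, where the deepest WT cell is among the 9. Summed, the list stood at 13598 CPM in cKO and 8593 CPM in WT dendritic cells, against 27343 and 28865.5 CPM in macrophages. The part of this makeup in the Fth1 values was not tested. The transferrin receptor Tfrc stood at 26.5 CPM in cKO and 41.1 CPM in WT, from 29 UMIs in cKO and 33 UMIs in WT, and Gpx4, which detoxifies lipid peroxides, at 201 CPM in cKO and 238 CPM in WT. E2f4, a transcription factor of the cell cycle, stood at 27.4 CPM in cKO and 26.2 CPM in WT.

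**Figure D5:**
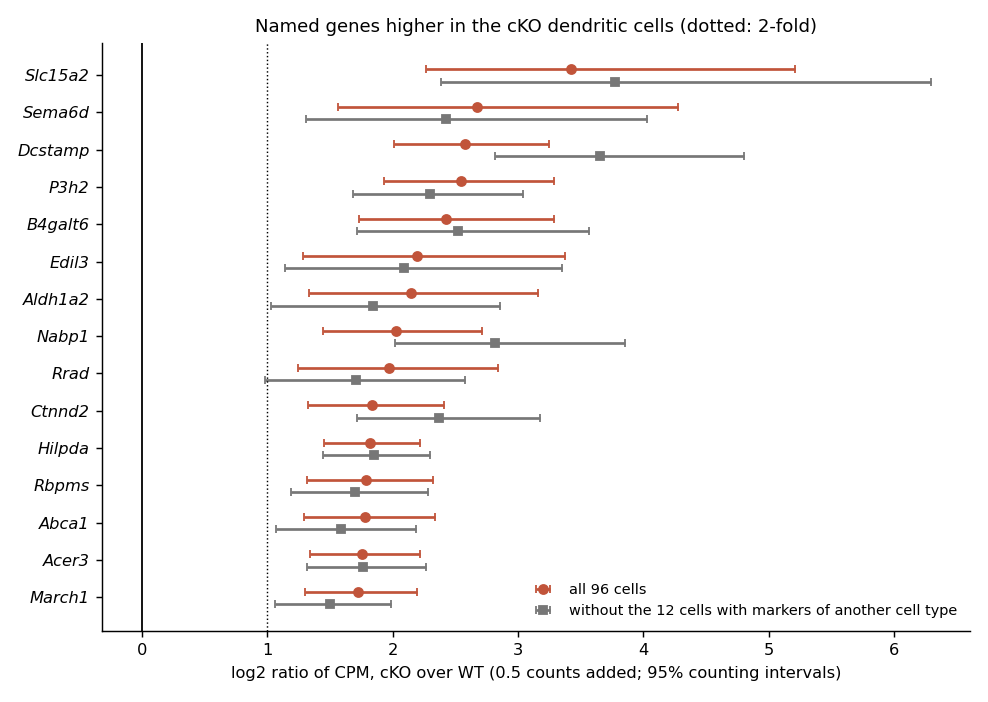
Log2 ratio of CPM, cKO over WT (x axis), of the 15 genes named as higher in cKO dendritic cells, over all 96 cells (red circles) and without the 12 cells with markers of another cell type (grey squares), with exact 95% counting intervals. All 15 stay right of the dotted 2-fold line in both.

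Of the 60 genes that were higher in cKO and met the rule for naming, the 15 largest were Slc15a2, Sema6d, Dcstamp, P3h2, B4galt6, Edil3, Aldh1a2, Nabp1, Rrad, Ctnnd2, Hilpda, Rbpms, Abca1, Acer3 and March1. All 15 stayed past 2-fold without the 12 cells, at log2 ratios of 1.5 to 3.77. In 3 of the 15, Sema6d, P3h2 and Aldh1a2, a single cell held over 50% of the cKO counts. Dcstamp (ENSMUSG00000022303, chromosome 15, 39745930 to 39760938, plus strand), a membrane protein for the fusion of osteoclast precursors also found in dendritic cells, stood at 196 CPM (171 to 224) in cKO and 32.4 CPM (21.1 to 47.4) in WT. Its log2 ratio was 2.57 (2.01 to 3.25). It had a UMI in 36.2% of the cKO and 7.89% of the WT dendritic cells, in 22.2% and 29.8% of macrophages and in 0.694% and 0.695% of epithelial cells. Nabp1, a single-stranded DNA binding protein, had a UMI in 67.2% of the cKO and 31.6% of the WT dendritic cells, against 63.0% and 58.6% of T cells. Hilpda, a lipid droplet protein induced by low oxygen, stood at 309 CPM in cKO and 87.2 CPM in WT.

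Slc15a2 (ENSMUSG00000022899, chromosome 16, 36750177 to 36784962, minus strand), a peptide transporter, had the largest log2 ratio, 3.42 (2.27 to 5.21), from 80 UMIs in cKO and 5 UMIs in WT. It differed in other classes of the same libraries too. It had a UMI in 36.2% of cKO and 10.5% of WT dendritic cells, in 33.9% and 7.55% of B cells, in 26.6% and 12.4% of T cells and in 24.2% and 11.7% of epithelial cells. Its signal in dendritic cells cannot be told apart from free RNA, whose part was not tested.

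The 15 genes named as lower in cKO were Tff3, Sprr2a3, Cald1, Lyz1, Mmp7, Wfdc18, Lrp8, Cacnb2, Clu, Ppargc1a, Frk, Naaladl2, Tacc2, Phgr1 and Trmt61b, the largest of 120 that met the rule. Most are known from epithelium, and in 12 of the 15 a single WT cell held at least 50% of the WT counts. Tff3, a goblet cell trefoil peptide, stood at 3.65 CPM in cKO and 597 CPM in WT, with 98.1% of the WT counts in a single cell. Lyz1, the Paneth cell lysozyme, stood at 21.9 CPM in cKO and 659 CPM in WT. Lyz1 had a UMI in 29.3% of cKO and 71.1% of WT dendritic cells, and in 31.2% and 63.5% of T cells, so a share of this size was present in cells of every gated class. Without the 12 cells 11 of the 15 stayed past 2-fold, with log2 ratios of -5.09 to 0.68 over all 15, and that of Tff3 was -2.14. Naaladl2 was the one that turned higher in cKO, at 0.68 (-1.60 to 4.23). Lrp8, a lipoprotein and reelin receptor, stood at 8.21 CPM in cKO and 112 CPM in WT, in 8 of 58 and 16 of 38 cells, and its log2 ratio was -2.15 without the 12 cells. Lrp8 had a UMI in 25.1% of epithelial cells in cKO and 21.3% in WT, and in 7.07% and 11.4% of T cells.

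Within cDC1-like cells alone, 17 in cKO and 15 in WT, 7.46% of 3873 measured genes were at least 2-fold higher in cKO and 7.46% at least 2-fold lower. Beside the stress genes, 6 of 14 measured interferon response genes were lower and 0 higher, with a median of -0.87, and -0.41 without the cells with other markers. Isg15, a ubiquitin-like interferon product, had 0 UMIs in cKO, which allows up to 8.02 CPM, and stood at 152 CPM in WT from 6 of 15 cells. Irf7 stood at 16.0 CPM in cKO and 155 CPM in WT, with 69.8% of the WT counts in a single cell. Of 14 measured migratory genes 5 were lower in cKO and 1 higher. Relb, found in 10 of 17 and 12 of 15 cells, stood at 74.9 CPM in cKO and 175 CPM in WT, a log2 ratio of -1.21 (-1.93 to -0.56).

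Within Ccr7 cells, 30 in cKO and 17 in WT, 6.44% of 4055 measured genes were at least 2-fold higher in cKO and 10.1% at least 2-fold lower. Of 26 measured migratory genes 5 were lower and 1 higher, and Serpinb6b, a serine protease inhibitor, stood at 275 CPM in cKO and 572 CPM in WT. In the Fscn1-high cells Serpinb6b was at 1139 CPM in cKO and 1092 CPM in WT. Of 15 measured interferon response genes 3 were at least 2-fold higher in cKO and 0 lower, a direction not seen in cDC1-like cells, though the difference between the states was not tested. Stat2, a transducer of the interferon signal, stood at 54.2 CPM in cKO and 17.5 CPM in WT in Ccr7 cells. Cd300a stood at 217 CPM in cKO and 78.8 CPM in WT, a log2 ratio of 1.44 (0.84 to 2.13).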

How the data were processed

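Droplet single-cell RNA data were used as deposited. The deposited matrices hold whole UMI counts per gene and barcode, not normalized, and per the file headers the authors counted with Cell Ranger 7.2.0. Seurat 3.0 and the build mm10 are named in the submitters' processing notes. Whether cells were filtered before deposit is not stated there. The members, gene lists and comparisons were chosen with earlier results of these data known. UMIs were summed over the dendritic cells of each library and scaled to CPM, and log2 ratios of cKO over WT have 0.5 counts added. With 1 library a genotype no test was made, and a gene counts as higher or lower past 2-fold. Intervals are 95% and exact, Poisson for levels, conditional binomial for ratios and Clopper-Pearson for shares, and a count of 0 allows up to 3 counts. PCR copies are removed by UMIs, yet the intervals cover counting error only. Genes were measured with at least 50 CPM in either library and 20 UMIs over both.

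Named genes were the 15 largest each way past 2-fold, with at least 20% of the highest gated class level, detected in at least 10% of the members and with the same direction in every state of at least 15 cells in each library. For states the 12, and against classes the 15, largest smaller-of-both-libraries ratios with at least 100 CPM were named. Unnamed gene models, sex-linked genes, antigen receptor genes and haemoglobins were left out, as were ribosomal proteins and mitochondrially encoded transcripts. Gated classes were macrophages, C1q-low myeloid cells, B cells, T cells, neutrophils and epithelial cells. Doublets were scored with Scrublet in scanpy 1.11.5 at 0.8% of barcodes per 1000, which marked 362 cKO and 714 WT barcodes, of which 1 and 2 were dendritic cells, and they were kept. Clec7a, Mx1 and Mx2 were not analysed here. Genes were placed with GENCODE release M21 on GRCm38, promoter windows came from RefSeq, and 13 of 15 genes looked for had one. The ratio and interval code was tested on simulated data. Python 3.11.15 was used with numpy 2.4.6, scipy 1.17.1, pandas 2.3.3 and matplotlib 3.10.9.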

Additional observations from a re-analysis of the deposited data

How the results depend on the processing

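The shares, Mtch2, the counts past 2-fold and the list medians were recomputed with other cell filters, marker limits, scalings, weights, added counts and gene filters, and, chosen after seeing the data, without cells with other markers. Of the recomputed values of the main results, 208 stayed within the reported interval or, for counts of genes, near the reported count, and 6 moved. Staying within a wide interval does not mean that the direction was kept. The differences in the shares of cDC1-like and Ccr7 cells, given below, changed sign within theirs. With states taken from the gene lists outside the rule the cDC2 share differed by 16.7 percentage points (48.3% in cKO, 31.6% in WT), against -0.18 as reported, and the share of the Ccr7 group by -8.26 points, against 6.99. With only the limit of 20 UMIs there were 357 genes past 2-fold higher and 629 lower. Without the cells with epithelial markers 130 genes were lower, and without all 12 cells with other markers 115. Without the epithelial-marker cells the median of the dissociation stress list was 0.71. Among single lists within states whose reported interval had a single sign, 2 reversed. These were the replication list within cDC1-like cells, 0.24 with markers of at least 5 UMIs and 4 CP10k, and cytokines within Ccr7 cells, -0.013 with each cell weighted equally. The cause was not tested in any of these. Thinned to 2000 UMIs, which left 33 cKO and 19 WT dendritic cells and removed 469 and 684 shallower cells, the share of cDC1-like cells differed by 6.86 points, against -10.2. The log2 ratio of Mtch2 ranged from -1.10 to -0.60. By the sex assigned to cells, the cDC1-like cells were 4 of 12 in cKO and 5 of 11 in WT among female cells, and 12 of 39 in cKO and 7 of 19 in WT among male cells, and the gene comparisons were not split by sex. No paired analysis was possible because each genotype has 1 library.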
